A study of Mus musculus with 8 samples.

Results

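The cytochrome P450 (P450) and glutathione S-transferase (GST) genes of the mouse pancreas were described in lean and obese mice. The members were every row of the expression table with a numbered P450 symbol (Cyp, family number, subfamily letter, gene number) or a numbered cytosolic GST symbol of class alpha, mu, pi, theta, omega or zeta. This gave 46 members of 15047 genes, of which 28 were P450 and 18 were GST genes. Cyp51 and Gstk1 were outside the naming pattern. Cyp2e1 had been singled out beforehand for its low values in ob/ob mice, so its values are given as a description with no test.

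RNA-seq was performed on pancreas from 8 male mice. The LFD group (n = 3) and the HFD group (n = 3) were wild-type C57BL/6 mice put at 4 weeks of age on a low-fat or a high-fat diet for 10 weeks, and 60% of the calories of the high-fat diet came from fat. The ob/ob group (n = 2) was C57BL/6J mice without functional leptin, grouped at 4 weeks of age and kept on standard chow, so genotype and diet cannot be told apart in a comparison of ob/ob with LFD. According to the study, all of these mice carried orthotopic transplants of organoids grown from a mouse pancreatic tumour, which the sample labels do not mention. Values are rlog values, a log2 scale corrected for library size by the authors that pulls low genes toward their mean, so a difference of 1 is a doubling and low genes have understated differences. Depth is unknown because no counts were used here.

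P450 enzymes are haem proteins that insert oxygen into drugs, fatty acids, sterols, retinoids and vitamin D, with electrons from P450 oxidoreductase or ferredoxin. GSTs join reactive electrophiles, including the products of oxidation by P450s and of lipid peroxidation, to glutathione. Both families are best known from the liver, and in the pancreas acinar cells, ductal cells, immune cells and fibroblasts each express some members.

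The tissue label was checked against markers. The 30 acinar markers, all measured, had a mean rlog value of 16.62 to 17.09 in LFD mice, and 16.97, 14.90 and 13.01 in HFD replicates 1, 2 and 3. It was 16.22 and 13.29 in the ob/ob mice. HFD replicate 3 stood apart: the mean of 6 measured enterocyte markers of 13 listed was 12.04 in this mouse, 5.19 to 5.30 in LFD mice, and 5.26 and 5.41 in the other HFD mice. The ob/ob mice, at 6.81 and 6.48, also lay above all of these. The hepatocyte marker Alb was at 3.62 to 6.20 in all 8 mice. The mean of 5 measured hepatocyte markers of 14 listed, Alb among them, was 5.15 to 5.33 for LFD mice. It was highest in HFD replicate 3, at 6.55. The marker Apoa1 was at 13.46 in that mouse, at 6.51 and 6.29 in the ob/ob mice, and at 3.60 to 3.89 with LFD. Pck1, at 7.61, was also highest in HFD replicate 3, while Alb, at 3.62, and Ttr, at 6.55, were lowest there. Apoa2, at 1.53, was neither. Against LFD, 2 of the 5 markers were higher and 3 lower by group mean, for HFD and for ob/ob alike. Differences of the members with the acinar mean as a covariate are given where they changed most.

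To show the regions upstream of the members that the results turn on, 250 bases before the RefSeq start site (GRCm38.p6) are printed 5′ to 3′ for Cyp2e1, the member with the largest difference, for Cyp4f18 and Cyp1b1, which were higher in HFD and ob/ob mice, and for Gstp1, which was lower. Capitals mark matches on either strand to GCGTG, the core bound by the aryl hydrocarbon receptor, or to TGACNNNGC, the core of the antioxidant response element. A match to one motif may overlap a match to the other.
Cyp2e1, chr7:140763569-140763818, plus strand: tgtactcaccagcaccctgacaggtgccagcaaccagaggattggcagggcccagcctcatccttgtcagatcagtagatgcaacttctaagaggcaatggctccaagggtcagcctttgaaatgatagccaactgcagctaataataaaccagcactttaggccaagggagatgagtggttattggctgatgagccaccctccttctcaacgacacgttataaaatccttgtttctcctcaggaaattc
Cyp4f18, chr8:72009627-72009876, minus strand: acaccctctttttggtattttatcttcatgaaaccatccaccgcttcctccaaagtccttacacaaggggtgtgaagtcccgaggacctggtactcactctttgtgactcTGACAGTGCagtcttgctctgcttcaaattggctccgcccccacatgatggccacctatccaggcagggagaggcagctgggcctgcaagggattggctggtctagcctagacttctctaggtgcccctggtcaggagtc
Cyp1b1, chr17:79715062-79715311, minus strand: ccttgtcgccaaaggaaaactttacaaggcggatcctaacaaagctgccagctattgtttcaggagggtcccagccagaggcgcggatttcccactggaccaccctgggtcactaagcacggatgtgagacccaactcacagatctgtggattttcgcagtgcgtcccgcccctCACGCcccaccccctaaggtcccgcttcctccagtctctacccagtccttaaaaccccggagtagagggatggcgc
Gstp1, chr19:4037913-4038162, minus strand: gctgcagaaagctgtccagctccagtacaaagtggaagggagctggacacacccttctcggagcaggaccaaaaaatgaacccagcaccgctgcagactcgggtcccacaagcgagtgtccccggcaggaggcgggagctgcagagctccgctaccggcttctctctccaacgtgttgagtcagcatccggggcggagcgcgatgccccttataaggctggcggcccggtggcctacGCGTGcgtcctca
The Cyp2e1 window held neither motif. The Cyp4f18 window held TGACNNNGC from 140 to 132 bases before the start. The Cyp1b1 window held GCGTG, on the opposite strand, from 76 to 72 bases before the start, and Gstp1 held it from 13 to 9 bases before. Over windows from 250 bases before to 50 after the start, 38 of the 46 members matched a promoter entry, with 49 promoters. GCGTG was in 14 of these (28.6%) and in 32.4% of all 32851 promoters, and TGACNNNGC was in 7 (14.3%) and in 12.4% of all. The members' windows thus held either motif about as often as promoters at large.

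By group mean, 26 of 46 members were lower in HFD and 31 of 46 in ob/ob than in LFD mice. No member passed an adjusted p of 0.05 in any of the 3 comparisons (limma over all 15047 genes, Benjamini-Hochberg), and no other gene did (0.0% of genes in each). The counts that follow therefore use an unadjusted p under 0.05, and each is read against the share of all genes. Compared to LFD, HFD mice had 4 members higher and 10 lower at this level, that is 14 of 46. The shares of all genes were 11.5% higher and 8.35% lower. Without Cyp2e1 the count was 4 higher and 9 lower. Compared to LFD, ob/ob mice had 2 members higher and 5 lower, against 11.6% and 7.18% of all genes, and without Cyp2e1 2 higher and 4 lower. Compared to HFD, ob/ob mice had 2 members higher (Gsto2, Cyp7b1) and 3 lower, against 2.28% and 1.63% of all genes. Without Cyp2e1 the lower members were 2, Cyp3a13 and Gstp2.

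The median difference of the members was -0.19 in HFD and -0.29 in ob/ob against LFD, where the medians over all genes were 0.03 and 0.04. The 18 GSTs had medians of -0.56 and -0.43, with 12 and 14 of 18 lower. The 28 P450s had medians of -0.04 and -0.20, with 14 and 17 of 28 lower. The difference between the families was not tested. The groups did not overlap for 3 members that were higher and 13 that were lower in HFD than in LFD, against 12.9% and 12.3% of all genes. For ob/ob against LFD these were 8 higher and 15 lower, against 24.1% and 21.8% of all genes. Without Cyp2e1 the lower members were 12 in HFD and 14 in ob/ob mice. All 5 HFD and ob/ob mice lay above all LFD mice in 2 members and below them in 9, Cyp2e1 among the 9. Of all genes, 9.40% lay above and 9.05% below in this way.

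The counts depended on single mice. For HFD against LFD 14 members and 2985 of all 15047 genes passed the unadjusted level. These became 22 members and 5445 genes without HFD replicate 1, and 8 and 1590 without HFD replicate 3. Without any 1 of the LFD mice they were 8 members and 1599 to 2050 genes. Without HFD replicate 1, 11 members (3 higher, 8 lower) and 2812 genes passed an adjusted p of 0.05 in limma. These 8 lower members include Cyp2e1, which was singled out from these same data, so its place among them is no support for it. The higher members were Cyp4f18, Cyp1b1 and Cyp4f16. For ob/ob against LFD 7 members and 2831 genes passed the unadjusted level. These became 14 and 4075 without HFD replicate 1, and 13 and 3248 without HFD replicate 3. They fell to 6 and 1949, 5 and 2072, and 6 and 1559 without LFD replicates 1, 2 and 3. Leaving out an ob/ob mouse leaves 1 in that group, so only medians are given for it. The median member difference was -0.12 without ob/ob replicate 2 and -0.39 without ob/ob replicate 1. Medians over all genes were then 0.01 and 0.07. For ob/ob against HFD 5 members and 588 genes did. These became 3 and 480 without LFD replicate 3, 3 and 581 without HFD replicate 2, and 6 and 987 without HFD replicate 1. The median member difference in this comparison was -0.14 with all 8 mice. It was 0.10 without ob/ob replicate 2 and -0.36 without ob/ob replicate 1, against -0.01 and 0.03 over all genes.

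**Figure D1:**
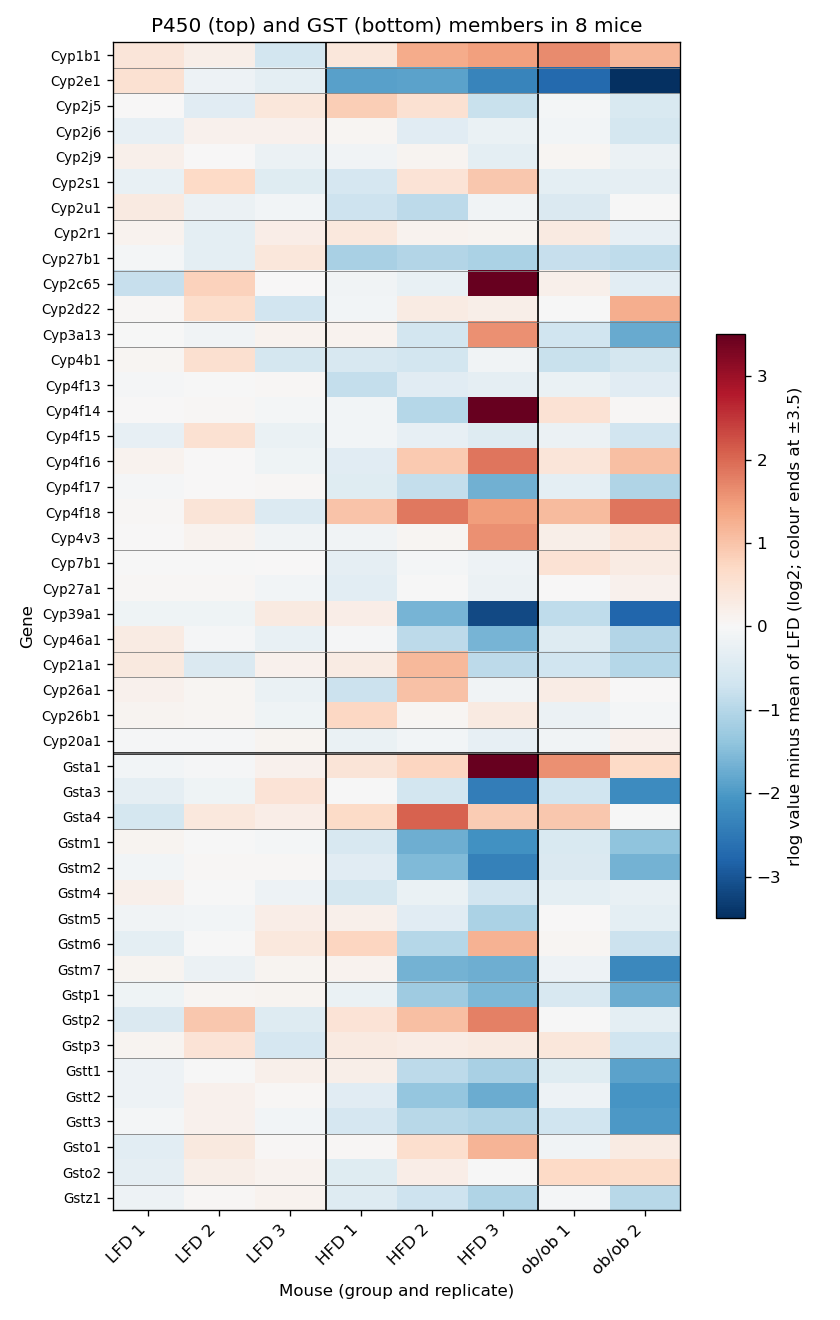
Heat map of the 46 members (rows, P450s above the thick line, GSTs below, ordered by role) in the 8 mice (columns); colour is the rlog value minus the LFD mean (log2). Cyp2e1 is low in all 5 HFD and ob/ob mice, many GSTs are low in HFD replicates 2 and 3 and ob/ob replicate 2, and Cyp4f14, Gsta1 and Cyp2c65 are high in HFD replicate 3.

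Cyp2e1 (chr7:140763739-140774987, GRCm38) oxidises ethanol, acetone and small solvents and is induced in the liver by fasting and diabetes. Its rlog values were 7.57, 6.87 and 6.69 in LFD, 5.14, 5.16 and 4.73 in HFD, and 4.33 and 3.55 in ob/ob mice. The 3 groups did not overlap, and the order was LFD, HFD, ob/ob. The difference from LFD was -2.03 (SE 0.33) in HFD and -3.10 (SE 0.37) in ob/ob, that is 4.09-fold and 8.57-fold lower, and ob/ob was lower than HFD by 1.07 (-1.07, SE 0.37). In these bulk samples, fewer cells of a type and less RNA per cell cannot be told apart. With the acinar mean as a covariate the differences were -1.77 (SE 0.36) and -2.80 (SE 0.40). HFD replicate 1, a single mouse, had an acinar mean within the LFD range and Cyp2e1 at 5.14. The part of acinar cells in the Cyp2e1 difference was not tested. The mean of 15 adipocyte markers, a cell type that expresses Cyp2e1, was 7.21 to 7.70 in LFD, 7.22 to 7.34 in HFD and 7.73 and 6.56 in ob/ob mice. One of these markers, Cfd, was at 7.50 to 8.41 in LFD mice and lower in all HFD and ob/ob mice (-1.68 and -2.13). Another, Lep, went the opposite way, at 5.86 to 6.28 with LFD and above this range in every HFD and ob/ob mouse (1.17 and 1.34). By group mean against LFD, 6 of the 15 markers were higher and 9 lower with HFD. For ob/ob these counts were 8 and 7. The part of adipocytes in the Cyp2e1 difference was not tested. Of its 31-base words, 5.83% occur in another gene, so few reads could be shared.

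Cyp1b1 (chr17:79701537-79715061) metabolises oestrogens and polycyclic hydrocarbons and is expressed in fibroblasts and other mesenchymal cells. It was at 7.39, 7.17 and 6.30 in LFD, 7.34, 8.24 and 8.39 in HFD, and 8.62 and 8.11 in ob/ob mice. Both ob/ob mice and HFD replicates 2 and 3 lay above all LFD mice. The difference was 1.04 (SE 0.37, adjusted p = 0.21) in HFD and 1.41 (SE 0.41, adjusted p = 0.20) in ob/ob by limma. The mean of the 12 fibroblast markers was 9.02 to 9.52 in LFD, 9.90 to 10.65 in HFD and 10.25 to 11.10 in ob/ob mice. Its part in the Cyp1b1 difference was not tested.

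Of 8 measured family 4 members, which hydroxylate the tail of fatty acids and eicosanoids, 1 was higher and 2 lower at the unadjusted level in HFD, against 11.5% and 8.35% of all genes, and 1 was higher in ob/ob mice, against 11.6%. Cyp4f18, which inactivates leukotriene B4 in neutrophils, was at 5.48, 5.88 and 4.95 in LFD, 6.44, 7.27 and 6.89 in HFD, and 6.55 and 7.32 in ob/ob mice. All 5 HFD and ob/ob mice lay above all LFD mice, with a difference of 1.43 (SE 0.35, adjusted p = 0.18) in HFD and 1.5 (SE 0.39, adjusted p = 0.19) in ob/ob by limma. The mean of 6 measured neutrophil markers of 10 listed was 5.68 to 6.64 in LFD, 7.25 to 8.33 in HFD and 6.55 to 7.08 in ob/ob mice. The mean of 12 macrophage markers was 8.43 to 9.06, 9.15 to 10.11 and 9.83 to 10.55 in the same groups. The part of either in the Cyp4f18 difference was not tested.

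Cyp4f17 was at 6.11, 6.16 and 6.21 in LFD, 5.73, 5.33 and 4.49 in HFD, and 5.81 and 5.10 in ob/ob mice, so that all HFD and ob/ob mice were below all LFD mice. The difference was -0.98 (SE 0.36) and -0.70 (SE 0.40), and -0.44 and -0.11 with the acinar covariate. Cyp4f13 was lower in the same way, by 0.52 (-0.52, SE 0.21) and 0.32 (-0.32, SE 0.23). Cyp4f16 was at 6.36 to 6.65 in LFD mice and at 6.12, 7.44 and 8.38 in HFD replicates 1 to 3, with a difference of 0.80 (SE 0.50) in HFD and 0.75 (SE 0.56) in ob/ob. With the acinar covariate these were -0.05 (SE 0.28) and -0.19 (SE 0.31), both smaller than their SE.

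**Figure D2:**
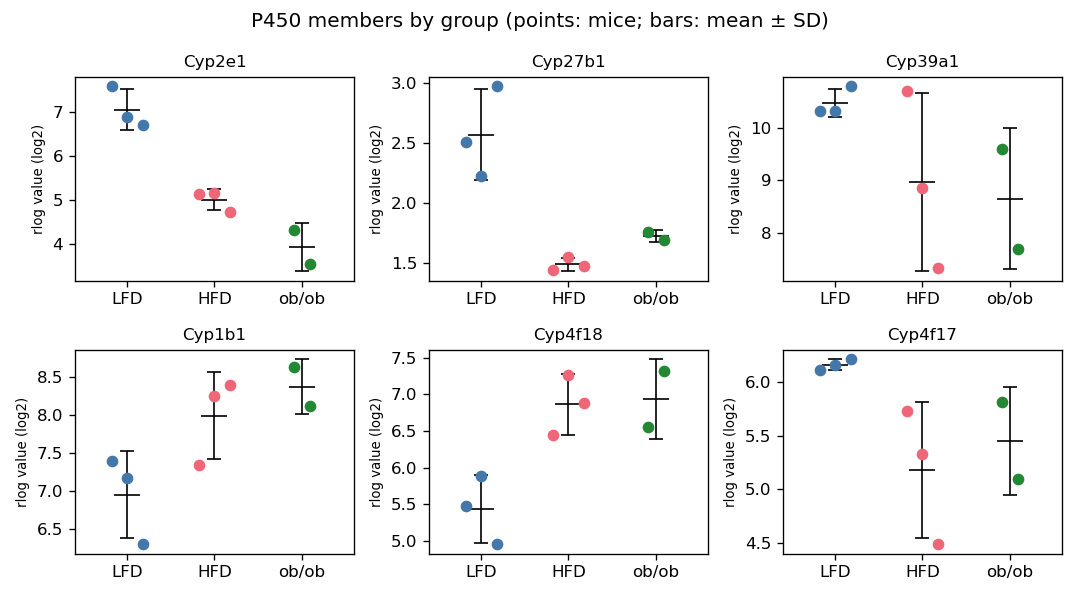
rlog values (log2, vertical axes) of 6 P450 members in LFD (n = 3), HFD (n = 3) and ob/ob (n = 2) mice; points are mice, bars are the mean ± SD. Cyp2e1, Cyp27b1 and Cyp4f17 are below all LFD mice in every HFD and ob/ob mouse, Cyp4f18 is above, and Cyp39a1 varies most within HFD and ob/ob.

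The oxysterol and bile acid P450s had no member at the unadjusted level against LFD. Cyp39a1, an oxysterol hydroxylase, was at 10.32, 10.33 and 10.79 in LFD, 10.71, 8.85 and 7.33 in HFD, and 9.60 and 7.70 in ob/ob mice. Its low mice were HFD replicates 2 and 3 and ob/ob replicate 2, the 3 with the lowest acinar means. The difference was -1.52 (SE 0.78) in HFD and -1.83 (SE 0.88) in ob/ob, and -0.04 and -0.19 with the acinar covariate. Without HFD replicate 3 the HFD difference was -0.70. Cyp46a1, the brain cholesterol hydroxylase, ranged from 2.69 to 3.26 in LFD and from 1.34 to 2.93 in HFD, with differences of -0.86 and -0.74, and of -0.27 and -0.09 with the covariate. Cyp27a1, the mitochondrial sterol hydroxylase, differed by -0.19 and 0.08.

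Cyp27b1, which makes active vitamin D, was at 2.51, 2.22 and 2.97 in LFD, 1.44, 1.55 and 1.47 in HFD, and 1.76 and 1.69 in ob/ob mice. All 5 HFD and ob/ob mice were lower, by 1.08 (-1.08, SE 0.26, adjusted p = 0.18) and 0.84 (-0.84, SE 0.29, adjusted p = 0.22, both limma). These values are low, and rlog shrinks differences most for low genes. The other vitamin D hydroxylase measured, Cyp2r1, differed by 0.20 and 0.01. The vitamin D receptor gene Vdr was higher by 1.54 (SE 0.72) and 1.36 (SE 0.80), and neither value passed the test.

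The other P450s showed smaller differences or varied between mice. Cyp2u1, a fatty acid hydroxylase, had the largest among the 5 members of subfamilies 2J, 2U and 2S, with -0.58 (SE 0.31) in HFD. The retinoic acid hydroxylase Cyp26b1 differed by 0.37 (SE 0.27) in HFD, Cyp20a1, of unknown substrate, by -0.20 (SE 0.16), and the steroid hydroxylase Cyp21a1 by -0.84 (SE 0.55) in ob/ob.

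Among the GSTs, the 3 theta genes and 5 of the 6 mu genes were lower in HFD, and the 3 theta and all 6 mu genes were lower in ob/ob than in LFD by group mean. The 6 measured mu genes lie in one cluster on chromosome 3, from Gstm5 (chr3:107895821-107898686) to Gstm4 (chr3:108040408-108044894). Gstm1 was at 9.78, 9.67 and 9.62 in LFD, 9.13, 7.98 and 7.57 in HFD, and 9.17 and 8.28 in ob/ob mice. All 5 HFD and ob/ob mice were below all LFD mice, and the difference was -1.46 (SE 0.39, adjusted p = 0.18) and -0.97 (SE 0.43, adjusted p = 0.27) by limma. Gstm2 was at 10.12, 10.25 and 10.24 in LFD, 9.81, 8.66 and 7.85 in HFD, and 9.69 and 8.55 in ob/ob, with a difference of -1.43 (SE 0.47) and -1.09 (SE 0.52). In ob/ob mice the differences of Gstm1 and Gstm2 were -0.22 and -0.13 with the acinar covariate. Gstm7 differed by -1.09 and -1.21, and by -0.05 and -0.07 with the covariate. Gstm5 differed by -0.44 and -0.17, and by 0.04 (SE 0.22) and 0.37 (SE 0.24) with the covariate.

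Gstp1, the most studied pi-class enzyme, was at 11.86, 12.07 and 12.11 in LFD, 11.79, 10.76 and 10.44 in HFD, and 11.45 and 10.28 in ob/ob mice. Its difference was -1.01 (SE 0.39) and -1.14 (SE 0.44). Its neighbour Gstp2 was higher in HFD by 1.10 (SE 0.47) and differed by -0.19 in ob/ob. Of the 31-base words of Gstp1 and Gstp2, 38.5% and 60.3% occur in another gene, mostly in each other, so these values are uncertain.

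The 3 theta genes lie together on chromosome 10. Gstt3 was at 8.33, 8.54 and 8.30 in LFD, 7.80, 7.42 and 7.33 in HFD, and 7.68 and 6.39 in ob/ob mice, with no overlap with LFD. The difference was -0.87 (SE 0.32) and -1.36 (SE 0.35, adjusted p = 0.19 in limma). Gstt2 differed by -1.16 and -1.12, which were -0.32 and -0.19 with the acinar covariate. Gstt1 differed by -0.61 and -1.15, and with the covariate by 0.15 (SE 0.21) and -0.31 (SE 0.24), the value in HFD being smaller than its SE. Gstz1, which also breaks down tyrosine products, differed by -0.75 (SE 0.26) and -0.52 (SE 0.29), and by -0.35 and -0.09 with the covariate.

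**Figure D3:**
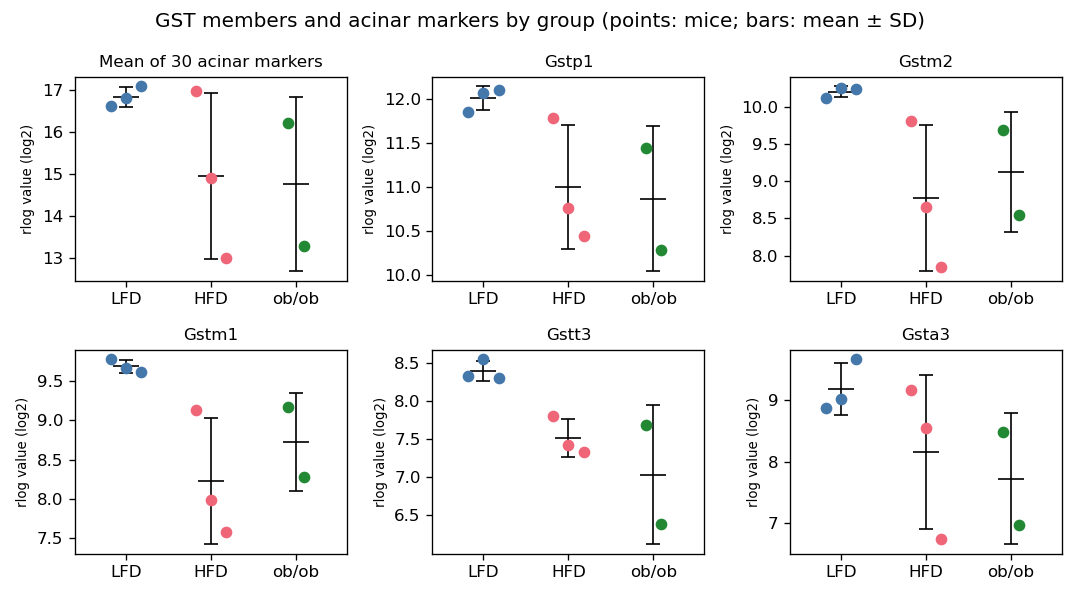
rlog values (log2) of the mean of 30 acinar markers and of 5 GST members in LFD (n = 3), HFD (n = 3) and ob/ob (n = 2) mice; points are mice, bars are the mean ± SD. The acinar mean, Gstp1, Gstm1, Gstm2 and Gstt3 are lowest in HFD replicates 2 and 3 and ob/ob replicate 2, and Gsta3 is lowest in HFD replicate 3 and ob/ob replicate 2.

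HFD replicate 2, HFD replicate 3 and ob/ob replicate 2 had the lowest acinar means. All 3 were below the other 5 mice in 13 members, 9 of them GSTs, which was 28.3% of members and 16.6% of all genes. With the acinar mean as a covariate the difference of Gstm1 moved from -1.46 to -0.79 in HFD, that of Gstm2 from -1.43 to -0.57 and that of Gstp1 from -1.01 to -0.33. Gsta3, an alpha-class enzyme, moved from -1.03 to 0.06 (SE 0.27) in HFD and from -1.46 to -0.24 (SE 0.30) in ob/ob. Both covariate values were smaller than their SE. Cyp27b1 moved from -1.08 to -1.05 and Cyp2e1 from -2.03 to -1.77 in HFD. The within-group SD of the GSTs had medians of 0.179, 0.695 and 0.666 for LFD, HFD and ob/ob mice respectively, against 0.226, 0.348 and 0.283 over all genes.

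**Figure D4:**
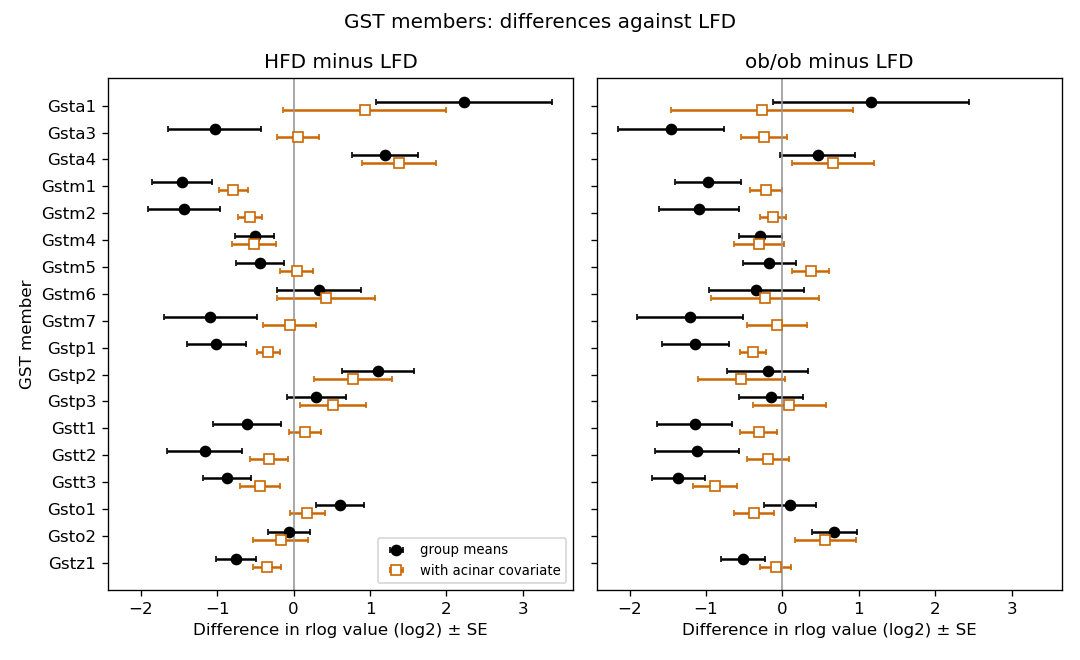
Difference in rlog value from LFD (log2, horizontal axis) for the 18 GST members in HFD (left) and ob/ob mice (right); filled points are group means, open squares add the acinar mean as a covariate, bars are ± SE. The lower values of Gstm7, Gstt2 and Gsta3 lie near 0 with the covariate.

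Other members were high in one mouse. In HFD replicate 3 Cyp4f14, a leukotriene hydroxylase, was at 9.48, against 3.41 to 4.91 in the other 7 mice. Gsta1 was at 7.90 there, against 2.32 to 4.03, and Cyp2c65, an intestinal P450, at 7.00, against 2.40 to 4.01. Cyp3a13 was at 9.85, against 6.49 to 8.38, and Cyp4v3 at 9.34, against 7.61 to 8.17. These 5 of 46 members exceeded every other mouse by more than 1, which 1.88% of all genes did. The enterocyte markers were high in the same mouse, and their part in these values was not tested. Without HFD replicate 3 the difference in HFD went from 1.34 to -0.54 for Cyp4f14, from 2.23 to 0.60 for Gsta1, from 1.14 to -0.18 for Cyp2c65 and from 0.36 to -0.26 for Cyp3a13. Of the 31-base words of Gsta1, 92.9% occur in another gene, so its identity is uncertain.

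**Figure D5:**
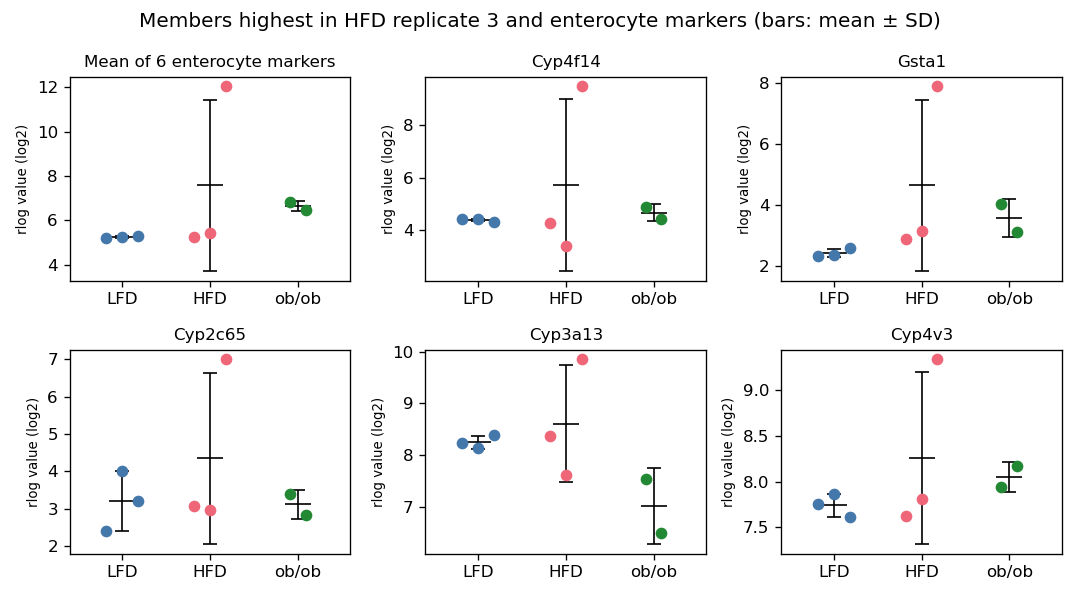
rlog values (log2) of the mean of 6 enterocyte markers and of 5 members in LFD (n = 3), HFD (n = 3) and ob/ob (n = 2) mice; points are mice, bars are the mean ± SD. In each panel the highest point is HFD replicate 3.

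Gsta4, which conjugates hydroxynonenal from lipid peroxidation, was at 6.68, 7.65 and 7.53 in LFD, 7.97, 9.34 and 8.17 in HFD, and 8.24 and 7.26 in ob/ob mice. All HFD mice were above all LFD mice, by 1.20 (SE 0.43, adjusted p = 0.21 in limma), while ob/ob overlapped LFD. Gsto1, a thioltransferase, differed by 0.61 (SE 0.31) in HFD and 0.10 in ob/ob, and by 0.18 and -0.37 with the acinar covariate. Gsto2 was at 1.94 to 2.46 in LFD and at 2.97 and 2.90 in ob/ob, a difference of 0.68 (SE 0.30).

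Comparing ob/ob with HFD, Cyp3a13 was lower by 1.59 (-1.59, SE 0.58), and Gstp2 by 1.29 (-1.29, SE 0.53). Without HFD replicate 3 these were -0.97 and -0.95. The lowest adjusted p among all members in this comparison was 0.9996 in limma.

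The genes around these enzymes were taken from lists, whose counts at the unadjusted level are to be read against 11.5% higher and 8.35% lower of all genes in HFD and 11.6% and 7.18% in ob/ob mice. Of 16 electron donor and haem genes, 0 were higher and 2 lower at the unadjusted level in HFD, and 1 and 2 in ob/ob mice. Fdx1, the mitochondrial ferredoxin, differed by -1.07 (SE 0.33) and -1.16 (SE 0.37), and Cpox, of haem synthesis, by -0.83 and -1.39. Hmox1, which degrades haem, differed by 0.56 and 1.43, and Por, the microsomal electron donor, by 0.33 and 0.73.

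Of 27 measured receptors and transcription factors that regulate P450 and GST genes, 2 were higher and 3 lower in both comparisons at the unadjusted level. Dbp, a circadian factor, differed by -2.21 (SE 0.30) in HFD. Ahrr, the repressor of the aryl hydrocarbon receptor, differed by 1.04 (SE 0.33) and 1.03 (SE 0.37). Cyp1b1 is a known target of that receptor, whose part in the Cyp1b1 difference was not tested. Nr5a2, which is also in the acinar list, differed by -1.45 and -1.74.

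Of 23 glutathione supply genes, 2 were higher and 7 lower in HFD, and 0 and 7 in ob/ob mice. Cbs and Cth make cysteine from homocysteine. Cbs differed by -2.07 and -1.93, and Cth by -1.47 and -2.01. Ggct was higher by 1.56 in HFD. Cbs was at 11.33 in HFD replicate 1 and 10.98 in ob/ob replicate 1, and at 9.48 or lower in the 3 acinar-poor mice.

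Of 9 other glutathione transferases, 2 were higher in HFD and 1 in ob/ob mice. Hpgds, the prostaglandin D synthase, differed by 1.10 (SE 0.30) and 1.99 (SE 0.33), and Mgst2, a microsomal enzyme, by 1.63 and 1.35, in the direction opposite to most cytosolic GSTs. Gstk1 differed by -0.57 and -1.10. Of 36 other oxidising and hydrolysing enzymes, 4 were higher and 2 lower in HFD, and 5 and 5 in ob/ob mice, with Aldh1a7 at -1.62 and -2.33. Of 22 conjugating enzymes, 4 were higher and 1 lower in HFD, and 4 and 2 in ob/ob mice, with Inmt at -2.31 and -2.51.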

How the data were processed

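RNA from pancreas of 8 male mice was sequenced by the authors, who quantified reads with Salmon 0.11.3 on Gencode release 18 (GRCm38.p6), summarised them to genes and made the rlog values with DESeq2 1.22.2. The deposited values are on a log2 scale, corrected for library size; the filter that left 15047 genes is not given in the sources used here, and no counts were used, so depth and its limits on low genes are unknown. The members and lists were chosen with earlier results of these data known. All 15047 genes were fitted with limma 3.58.1 in R 4.3.3 (means of the 3 groups over all 8 mice, empirical Bayes with a variance trend), with Benjamini-Hochberg adjustment. All 46 members were tested with no filter on low values; 28 had a mean of at least 5 and 18 were below. Alternatives were no trend, a filter at a mean of 5, the mice of 2 groups alone, centring on the median, quantile normalization, mouse weights, a replicate block, an acinar covariate and leaving out each mouse; acinar covariate with no HFD replicate 3 was added after seeing the data. Members were named if they were Cyp2e1, among the 4 largest differences each way in a comparison, or the largest of a role group. For pathway genes, the 2 largest in each direction could be named. The rest of a role group may be named. Sequence sharing was counted as 31-base words in Gencode release 21 transcripts of the same assembly, another release than the authors used. The script was tested on simulated data.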

Additional observations from a re-analysis of the deposited data

Results flagged for a closer look

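Cyp7b1, an oxysterol hydroxylase, differed from LFD in opposite directions in the HFD and ob/ob groups. It was at 5.62, 5.61 and 5.64 in LFD, at 5.30, 5.55 and 5.44 in HFD, and at 6.12 and 5.90 in ob/ob mice, so that every HFD mouse was below and both ob/ob mice were above all LFD mice. The differences from LFD were small, -0.19 (SE 0.22) in HFD and 0.39 (SE 0.25) in ob/ob, and neither passed the unadjusted level. The LFD mice lay close together, with an SD of 0.02. The difference of ob/ob from HFD was 0.58 (SE 0.25, adjusted p = 0.9996 by limma), and the direction split itself was not tested.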

How the results depend on the processing

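Depth is unknown, only 2 ob/ob mice were used, and a lone ob/ob mouse was assumed to vary like the other groups. Limma did not converge on the mouse weights. The counts of members below are to be read against those of all 15047 genes at the unadjusted level. For HFD against LFD these were 2985, 7936 with mouse weights, 1648 with the acinar covariate and 1480 to 5445 without 1 mouse. For ob/ob against LFD they were 2831, 3934 with only the groups compared, 3277 with mouse weights and 3243 with the replicate block. They were 979 with the acinar covariate and no HFD replicate 3, and 1559 to 4075 without 1 LFD or HFD mouse. For ob/ob against HFD they were 588, 353 with only the groups compared, 467 with the replicate block and 1175 with the acinar covariate. They were 389 of 11833 genes with a mean of at least 5, and 465 to 987 without 1 LFD or HFD mouse. For HFD against LFD, the 14 members at the unadjusted level became 26 with mouse weights, 8 with the acinar covariate and 8 to 22 without 1 mouse; genes past an adjusted p of 0.05 went from 0 to 1 with only the groups compared, 6656 with mouse weights, 12 with the acinar covariate and no HFD replicate 3, and 0 to 2812 without 1 mouse. For ob/ob against LFD, the 7 members became 14 with only the groups compared, 12 with mouse weights and 13 with the replicate block. They became 4 with the acinar covariate and no HFD replicate 3, and 5 to 14 without 1 LFD or HFD mouse. The 0 genes became 38 with only the groups compared and 1 with the acinar covariate, also without HFD replicate 3. They were 0 to 89 without 1 LFD or HFD mouse. For ob/ob against HFD, the 5 members became 2 with only the groups compared, 3 with a mean of at least 5 and 3 with the replicate block. They became 8 with the acinar covariate and 3 to 6 without 1 LFD or HFD mouse. The 0 genes became 1 with the acinar covariate and stayed 0 without 1 LFD or HFD mouse. The replicate numbers did not meet the rule for pairing, a correlation over 0.1 in every pair (correlations of deviations -0.06, 0.113 and -0.281 between LFD and HFD, 0.592 and 0.303 between HFD and ob/ob, -0.097 and 0.128 between LFD and ob/ob), so the mice were taken to share a number only. None of the 34 named differences passed the threshold, and in 13 of 566 alternative fits the direction turned. Cyp4f14 in HFD against LFD was -0.65 with mouse weights, -0.11 with the acinar covariate and -0.32 with that and no HFD replicate 3. Cyp2c65 was -0.14 with mouse weights and -0.03 with the acinar covariate and no HFD replicate 3 in the same comparison, and 0.29 in ob/ob against HFD with the latter. In ob/ob against LFD, Cyp4f16 was -0.19 and -0.01 with the acinar covariate with and without HFD replicate 3, and Gsta1 was -0.27 with it. Over the fits without 1 mouse, Cyp4f14 ranged from -0.54 to 2.49 and Cyp2c65 from -0.18 to 1.83 in HFD against LFD, and Cyp2c65 from -1.93 to 0.09 and Cyp2d22 from -0.16 to 1.14 in ob/ob against HFD. Leaving out HFD replicate 3 (Cyp4f14, Cyp2c65) or ob/ob replicate 2 (Cyp2d22) turned the direction. The causes were not tested. In HFD against LFD with mouse weights, 24 members and 6656 of all 15047 genes passed an adjusted p of 0.05 by limma. The 24 include Cyp2e1, which was singled out from these same data, so its place among them is no support for it.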
